A study of Mus musculus with 6 samples.

Results

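The colony-stimulating factors and their receptors were followed across the cells of mouse pancreatic tumours. The set holds 8 genes, chosen by name: the factors Csf1, Csf2, Csf3 and Il34, and the receptor chains Csf1r, Csf2ra, Csf2rb and Csf3r. All 8 were found among the 29781 genes listed in at least 1 library. The tumours had been grown from KPC cells placed in the pancreas of wild-type C57BL/6J mice. KPC is a mouse pancreatic cancer line. Of 6 mice assigned at random, 3 received an antibody to mouse VSIG4 (named #44-anti-mVSIG4 in the labels) and 3 received IgG. VSIG4 is a complement receptor of tissue macrophages. All tumours were taken on day 11 after inoculation, 1 single-cell RNA library was made per mouse, and the sources used here give neither dose nor schedule. All 6 mice carried the transplanted line, and an untransplanted pancreas was not analysed here.

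CSF1 and IL-34 are ligands of the same receptor tyrosine kinase, CSF1R, on which most tissue macrophages depend for survival. CSF2, also called GM-CSF, binds a receptor of an alpha chain, encoded by Csf2ra, and a common beta chain, encoded by Csf2rb, which receptors for IL-3 and IL-5 also use. CSF3, also called G-CSF, acts through CSF3R and drives the production and release of neutrophils. In mouse pancreatic cancer, GM-CSF made by the tumour cells is known for drawing in suppressive myeloid cells, and CSF1R has been studied as a drug target on tumour macrophages.

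The 6 libraries held 26606234 to 47221033 UMIs (counted RNA molecules), and 47603 of 47794 cell barcodes were kept. Cells were grouped and named from marker genes, so each name means cells like that type. The 8 genes took no part in the grouping or the naming, so their levels per class are not fixed by it. The 10 classes compared were neutrophils (16028 cells), monocyte/macrophages (11261), T cells (6240), NK cells (1061), cDC2, which are type 2 conventional dendritic cells (1271), tumour/epithelial cells (2683), fibroblasts (885), migratory dendritic cells (559), endothelial cells (442) and plasma cells (312). The tumour/epithelial class was led by Krt8, Krt18, Krt19 and Krt7, keratins of duct epithelium, and normal duct cells cannot be told apart from KPC cells in it. A further 6186 cells, rich in RNA of long genes as nuclei are, were left unnamed. Their share was 0.4%, 0.339% and 6.2% in anti-VSIG4 libraries 1, 2 and 3, against 0.335%, 18% and 44.2% in IgG libraries 1, 2 and 3. Libraries anti-VSIG4 1, anti-VSIG4 2 and IgG 1 are therefore called low-nucleus below, and the other 3 high-nucleus. Clusters within classes followed this split: the largest T cell cluster held 1368, 587 and 85 cells in the anti-VSIG4 libraries and 634, 67 and 52 in the IgG libraries. The 6 barcode lists reuse 11691 of 32450 barcode names, and 0 cells had counts identical to those of another. Levels are given in CPM, which scales the UMIs of a gene by all UMIs of its class in that library, and values per library follow the order 1, 2, 3 throughout.

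Promoter windows are shown for the receptor genes Csf2ra and Csf3r because the receptor chains were the members with the sharpest myeloid pattern. Across the 60 sums of 10 classes in 6 libraries, Csf2ra and Csf2rb each had a Pearson r of 0.95 with Spi1, which encodes the myeloid transcription factor PU.1. Spi1 was not among the 3 genes whose levels were most like Csf3r. These sums share libraries and depth, so r is a description. The windows run from 250 bases before to 50 bases after the annotated start, in RefSeq on GRCm38.p6, and capitals mark GAGGAAG, a letter sequence of the PU.1 type, searched on both strands.
Csf2ra, chr19:61228369-61228668, minus strand: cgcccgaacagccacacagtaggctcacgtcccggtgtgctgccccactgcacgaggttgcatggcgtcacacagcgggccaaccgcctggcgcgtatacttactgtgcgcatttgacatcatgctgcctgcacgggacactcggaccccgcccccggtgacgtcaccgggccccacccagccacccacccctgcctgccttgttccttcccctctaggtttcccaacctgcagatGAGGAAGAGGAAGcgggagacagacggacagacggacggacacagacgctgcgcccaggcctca
Csf3r, chr4:126024409-126024708, plus strand: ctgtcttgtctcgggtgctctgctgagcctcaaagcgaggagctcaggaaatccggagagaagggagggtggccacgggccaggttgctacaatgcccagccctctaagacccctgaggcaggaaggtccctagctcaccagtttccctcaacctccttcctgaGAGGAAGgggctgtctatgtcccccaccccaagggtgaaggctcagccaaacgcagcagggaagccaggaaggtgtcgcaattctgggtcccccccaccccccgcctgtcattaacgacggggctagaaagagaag
In Csf2ra the capitals hold a pair of overlapping copies. The windows of Csf1 and Csf2 did not hold these letters, and no other member's window was examined, so the windows shown are also those with a match. Among 32851 promoter windows of the same length, 4477 held the letters, or 13.6%. A match describes the letters only and is not a measured binding site.

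Between the antibody groups, no member passed the test in any class. UMIs were summed per class and library and tested with edgeR's quasi-likelihood test, with p-values adjusted by Benjamini-Hochberg over all genes tested in a class. With 1 library per mouse, p-values measure the spread between mice. Log2 changes are those of anti-VSIG4 over IgG, each with an approximate standard error, namely its size over the root of its F statistic. The 8 members in 10 classes make 80 pairs, of which 57 passed the filter on low counts, 0 had an adjusted p under 0.05 and 5 an unadjusted p under 0.05. Over all genes edgeR called 0.00906% in neutrophils, 0.0152% in endothelial cells and 0% in each of the other 8 classes, with 234 to 609 genes per class reaching 0.05 before adjustment. DESeq2 called 0 to 31 genes per class. The 5 were Csf2 and Csf1r in T cells, Il34 in tumour/epithelial cells, Csf3 in fibroblasts and Csf1r in endothelial cells. Groups did not overlap in 7 of the 57 tested pairs, or 12.3%, and in 2 more pairs of NK cells under the filter. Of all gene and class pairs tested, 10% had groups that did not overlap, so the members' share was near the background. By class this background ran from 7.41% in tumour/epithelial cells to 19.0% in plasma cells.

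**Figure D1:**
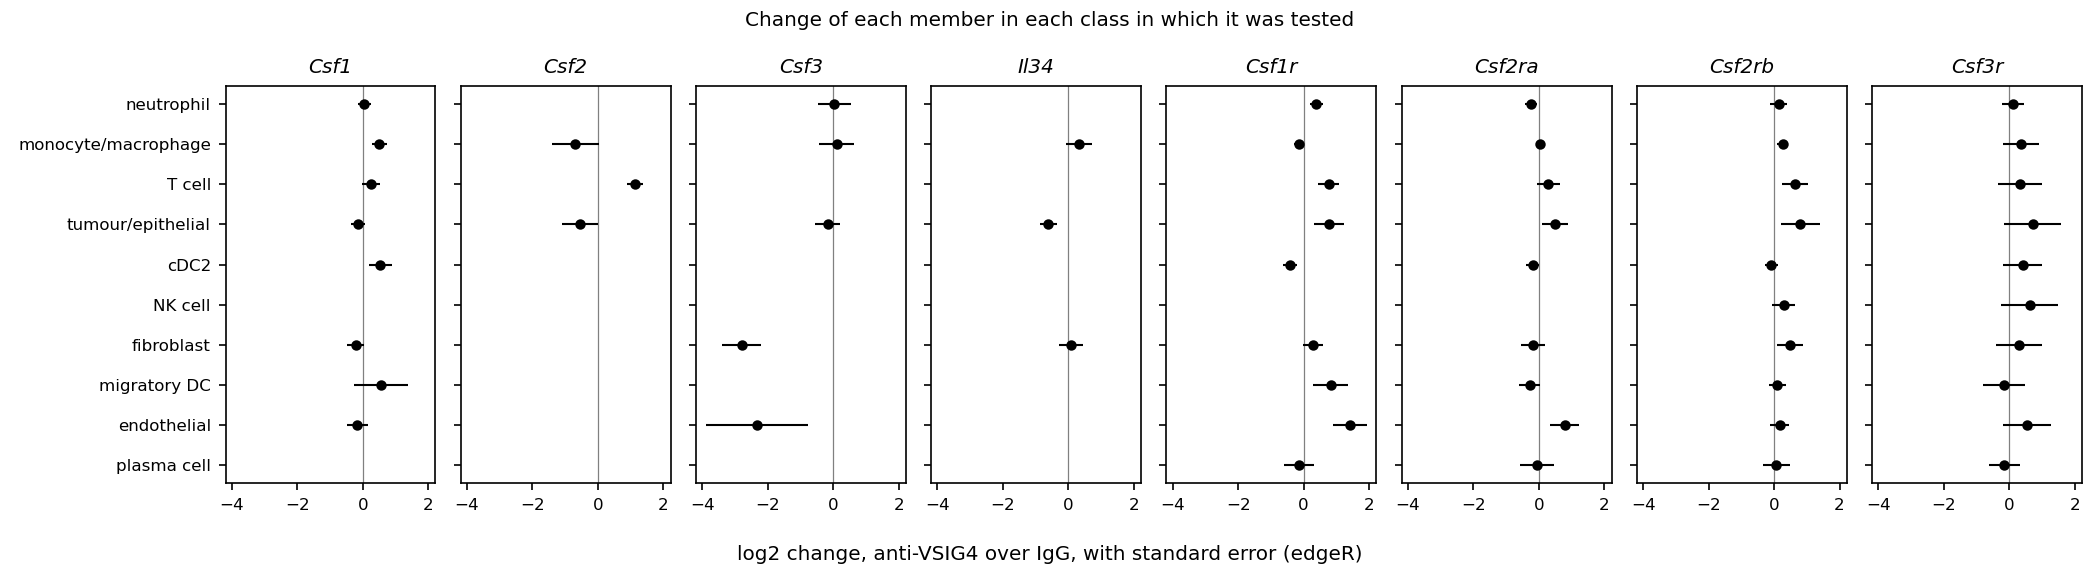
Change of each member between anti-VSIG4 and IgG libraries in each class where it passed the filter, as log2 of anti-VSIG4 over IgG with its standard error from edgeR; values right of 0 are higher in anti-VSIG4. No change passes an adjusted p of 0.05. The Csf3 change in fibroblasts is -2.80 ± 0.59 and the Csf2 change in T cells 1.14 ± 0.24.

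Csf1 RNA came mainly from neutrophils and, per cell, from fibroblasts. Of all Csf1 UMIs, 55.6% lay in neutrophils, 12.7% in monocyte/macrophages, 11.0% in fibroblasts, 8.12% in tumour/epithelial cells and 4.47% in T cells. These shares follow the number of cells caught of each class as well as their RNA. The level in neutrophils was 356, 328 and 401 CPM in anti-VSIG4 libraries and 344, 427 and 360 CPM in IgG libraries. The level in fibroblasts was 319, 164 and 243 CPM in anti-VSIG4 libraries and 255, 312 and 246 CPM in IgG libraries. In both classes the groups overlapped, and all 6 fibroblast values lay above all 6 tumour/epithelial values, which ran from 25.3 to 43.6 CPM. Per cell, fibroblasts held 2.47 Csf1 UMIs, neutrophils 0.689 and tumour/epithelial cells 0.602. After each cell was thinned to 1000 UMIs, 20.6% of neutrophils and 17.7% of fibroblasts had a Csf1 UMI, against 28.0% and 52.0% before thinning. NK cells, the class with the lowest share, had 0.848% thinned and 3.77% unthinned.

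**Figure D2:**
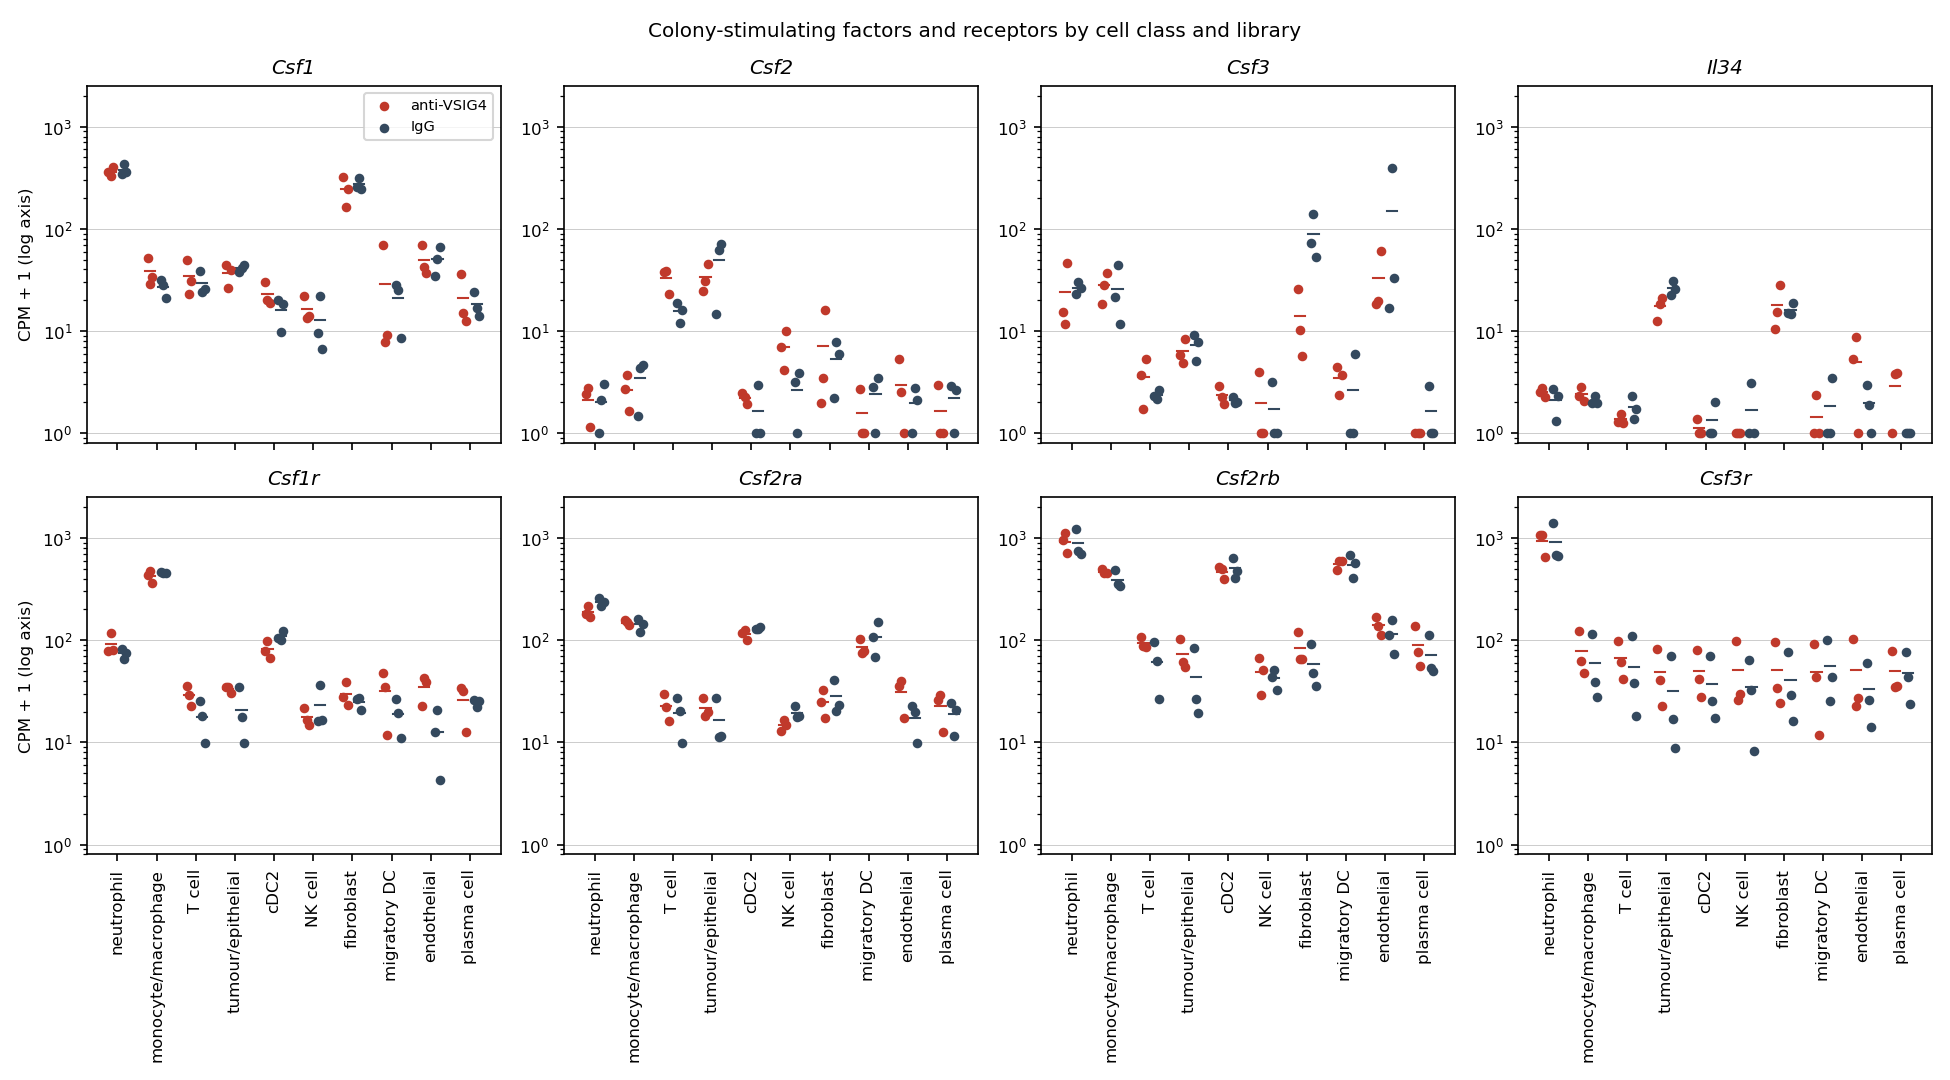
Level of each of the 8 genes in 10 classes, in CPM plus 1 on a log axis, with 1 point per library, anti-VSIG4 in red on the left and IgG in dark blue on the right, and a dash at the mean of a group. Csf1 is highest in neutrophils and fibroblasts, Csf1r in monocyte/macrophages and Csf3r in neutrophils; Csf2 is highest in tumour/epithelial cells or T cells, depending on the library, and Il34 in tumour/epithelial cells in 5 of 6 libraries and in fibroblasts in anti-VSIG4 3.

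After the 2 leading classes, Csf1 levels were close together. Means over 6 libraries were 49.2 ± 15.1 CPM in endothelial cells, 38.1 ± 6.79 CPM in tumour/epithelial cells, 31.5 ± 10.4 CPM in monocyte/macrophages and 31.1 ± 10.4 CPM in T cells (SD, n = 6). Neighbours in that order did not differ beyond their spread. Among neutrophils, Csf1 was high in the sub-clusters with cytokine genes such as Ccl3 and Tnf, which averaged 499 ± 55.6 and 557 ± 131 CPM. It was lower in the sub-clusters with Cxcr2, the receptor that draws neutrophils out of blood, which averaged 84.7 ± 33.3 and 248 ± 40.6 CPM (SD, n = 6 each). In each of the 6 libraries both cytokine sub-clusters lay above both Cxcr2 sub-clusters. The 3 genes whose levels over the 60 sums were most like Csf1 were Gpc3 (r = 0.87), Igfbp6 (r = 0.86) and Egr1 (r = 0.86), encoding a glypican, a binding protein of insulin-like growth factors and an early-response transcription factor.

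A small group of cells had a pooled Csf1 level above that of every class. These 32 cells were basophil-like by Gata2 and Mcpt8, and 3 to 10 of them came from each library. Their pooled level was 2630 CPM for Csf1 (136 UMIs) and 2940 CPM for Csf2rb (152 UMIs). Per library, Csf1 was 213, 764 and 3612 CPM in the anti-VSIG4 libraries and 4262, 2893 and 4798 CPM in the IgG libraries, where 1, 11 and 34 UMIs stand against 38, 25 and 27 UMIs. The groups overlapped and were not tested, and the value of anti-VSIG4 1, on 1 UMI, lay below the neutrophils and fibroblasts of that library. Beta chain receptors are known to carry the IL-3 signal in basophils.

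Il34 RNA came from tumour/epithelial cells and fibroblasts. The tumour/epithelial class held 72.0% of all Il34 UMIs and fibroblasts 10.4%. Il34 was at 11.6, 17.5 and 20.1 CPM in tumour/epithelial cells of anti-VSIG4 libraries, against 21.5, 29.7 and 25 CPM in those of IgG libraries. Every anti-VSIG4 value lay below every IgG value, the most distinct pattern a 3 against 3 design can give (exact two-sided permutation p = 0.1, the smallest possible), and 7.41% of all genes tested in this class had such a pattern. The edgeR change was -0.62 ± 0.26 on the log2 scale, with an unadjusted p of 0.0386 and an adjusted p of 0.998 over all genes, so it did not pass. It was -0.62 among low-nucleus and -0.38 among high-nucleus libraries. The summed level of Krt8, Krt18 and Krt19 in the same class was 8210, 9280 and 11000 CPM in anti-VSIG4 libraries and 9780, 13000 and 14300 CPM in IgG libraries, and its part in the Il34 result was not tested.

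Il34 UMIs were spread over 432 tumour/epithelial cells, and no cell held more than 16.2% of its library's Il34 UMIs there. Without the cell with most UMIs in each library, the groups were still apart (exact permutation p = 0.1). Thinned shares of cells with an Il34 UMI were 2.01% in tumour/epithelial cells and 1.36% in fibroblasts, against 0.0641% in T cells (unthinned 16.1%, 8.93% and 0.24%). Per library, the thinned tumour/epithelial share was 1.39%, 1.37% and 0.448% in anti-VSIG4 and 2.1%, 1.38% and 3.4% in IgG libraries (exact permutation p = 0.2). Unthinned, it was 8.35%, 11.0% and 12.6% in anti-VSIG4 and 12.3%, 26.4% and 20.1% in IgG libraries. The groups overlapped in this share, thinned or not. Fibroblast levels were 9.57, 14.2 and 26.9 CPM in anti-VSIG4 libraries and 14, 13.6 and 18 CPM in IgG libraries, which overlapped. Steap2 (r = 0.9), Nbl1 (r = 0.89) and Sdc2 (r = 0.88), encoding a metalloreductase, a BMP antagonist and a syndecan, had the levels most like Il34.

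The shared receptor, Csf1r, was carried by monocyte/macrophages, which held 81.7% of its UMIs. Their level was 433, 473 and 359 CPM in anti-VSIG4 libraries and 459, 452 and 458 CPM in IgG libraries. These values overlapped, with the lowest in anti-VSIG4 3. The next classes were cDC2 with a mean of 94.5 ± 20.2 CPM and neutrophils with 82.2 ± 17.7 CPM (SD, n = 6), which did not differ beyond their spread. Monocyte/macrophages were above both in all 6 libraries. The thinned share of cells with a Csf1r UMI was 29.9% in monocyte/macrophages and 2.68% in T cells, which should lack the receptor (unthinned 67.1% and 9.02%).

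Within monocyte/macrophages, Csf1r was higher in a sub-cluster of macrophages with C1q genes and in resident-type macrophages than in monocytes with Ly6c2. That C1q sub-cluster (cluster 7) ran from 677 to 882 CPM and resident-type macrophages with Lyve1 and Folr2 from 531 to 756 CPM over the 6 libraries. The 3 monocyte sub-clusters with Ly6c2 ran from 132 to 427 CPM, below both of these in every library. Arg1 macrophages lay between, at 483 ± 24.7 CPM, as did a further C1q sub-cluster at 434 ± 49.9 CPM and Saa3 macrophages at 430.5 ± 59.3 CPM (SD, n = 6). Csf1r levels over the 60 sums were most like those of Fcgr2b, Lyz2 and Ccl6 (r = 0.93 each), an inhibitory Fc receptor, a lysozyme and a chemokine.

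**Figure D3:**
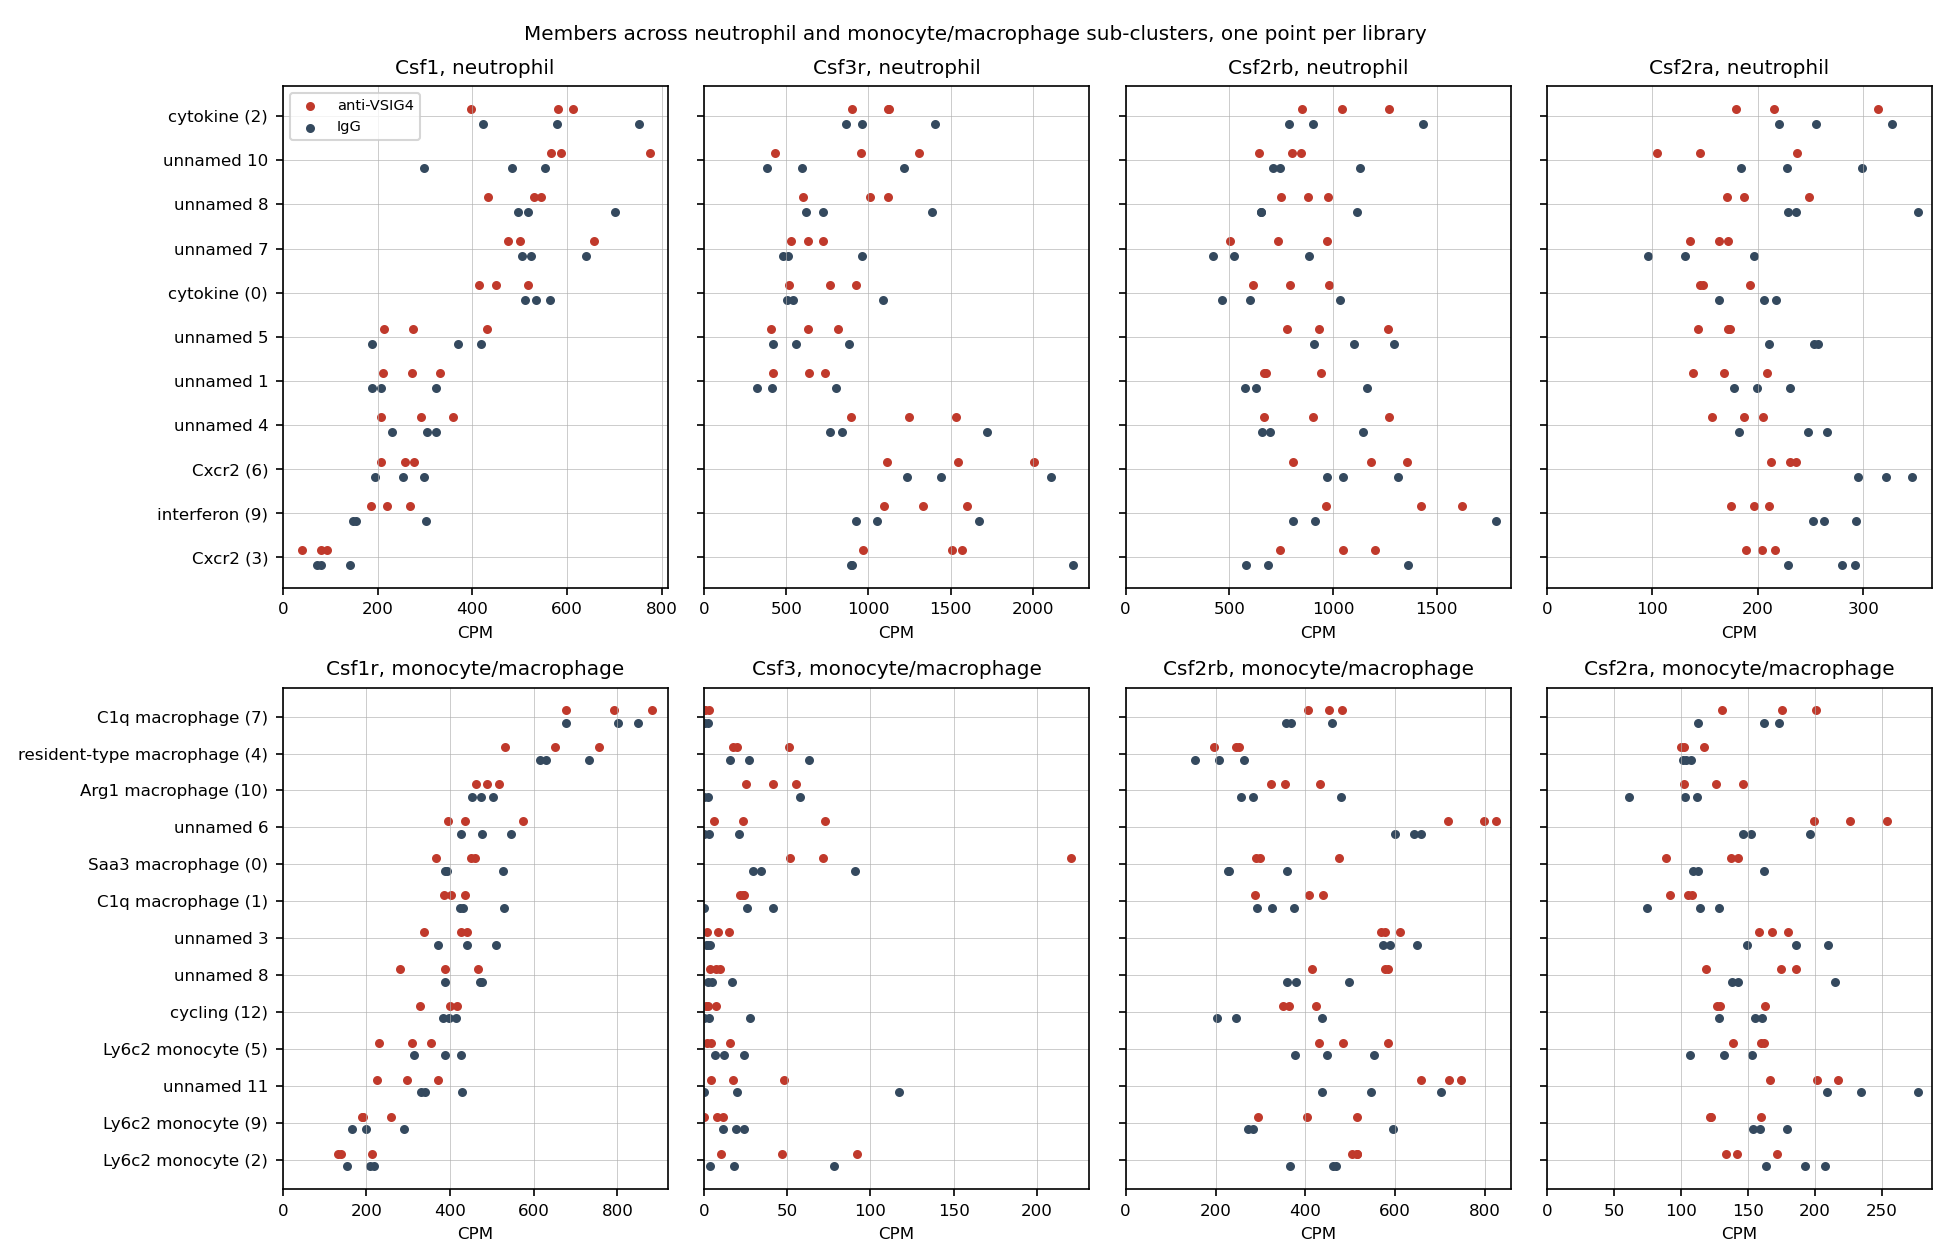
Levels in CPM of selected members in neutrophil sub-clusters and in monocyte/macrophage sub-clusters of at least 400 cells, with 1 point per library, anti-VSIG4 in red and IgG in dark blue. Of the neutrophil sub-clusters, Cxcr2 cluster 3 has the lowest mean of Csf1; of the monocyte/macrophage sub-clusters, C1q cluster 7 has the highest mean of Csf1r and Ly6c2 monocyte cluster 2 the lowest.

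Csf1r did not overlap between groups in 2 smaller classes, in opposite directions. Of all genes tested, 10.9% in cDC2 and 9.88% in endothelial cells had groups without overlap. In cDC2 it was 77.6, 98 and 65.4 CPM in anti-VSIG4 libraries, against 105, 98.5 and 122 CPM in IgG libraries (edgeR -0.42 ± 0.21, adjusted p = 0.929; -0.24 and -0.74 in low- and high-nucleus libraries). The summed macrophage genes C1qa, C1qb and Apoe ran the other way in cDC2, at 1520, 888 and 929 CPM against 806, 803 and 463 CPM. In endothelial cells Csf1r was 21.6, 41.7 and 38.0 CPM in anti-VSIG4 libraries, against 11.8, 19.8 and 3.32 CPM in IgG libraries (edgeR 1.42 ± 0.51, adjusted p = 0.858; 1.34 and 1.63 in low- and high-nucleus libraries). There the same macrophage genes were at 1680, 1850 and 3510 CPM against 813, 850 and 340 CPM, and their part in the Csf1r difference was not tested.

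Csf2 RNA had a pair of sources, tumour/epithelial cells and T cells, and which of them led depended on the library. Over all libraries, 65.1% of Csf2 UMIs lay in tumour/epithelial cells, 22.6% in T cells, 4.61% in monocyte/macrophages and 1.26% in fibroblasts. T cells held 59.5%, 56.5% and 27.4% in anti-VSIG4 libraries and 57.0%, 3.87% and 5.39% in IgG libraries. Tumour/epithelial cells held 28.0%, 30.2% and 55.4% in anti-VSIG4 libraries and 34.7%, 84.8% and 82.7% in IgG libraries. The T cell share was thus the larger in the 3 low-nucleus libraries and the tumour share in the 3 high-nucleus libraries, whichever the antibody. In anti-VSIG4 2 the T cell lead rested on 1 cell with 169 of 213 UMIs. Without it, T cells held 44 Csf2 UMIs there, against 114 in tumour/epithelial cells. Without their top cell, T cells of IgG 1 held 41 against 42, and those of anti-VSIG4 1 held 224 against 122. The tumour/epithelial counts keep their own top cells, so the 2 sides are not trimmed alike. Those cells held 48 of 114 UMIs in anti-VSIG4 2, 8 of 42 in IgG 1 and 20 of 122 in anti-VSIG4 1.

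**Figure D4:**
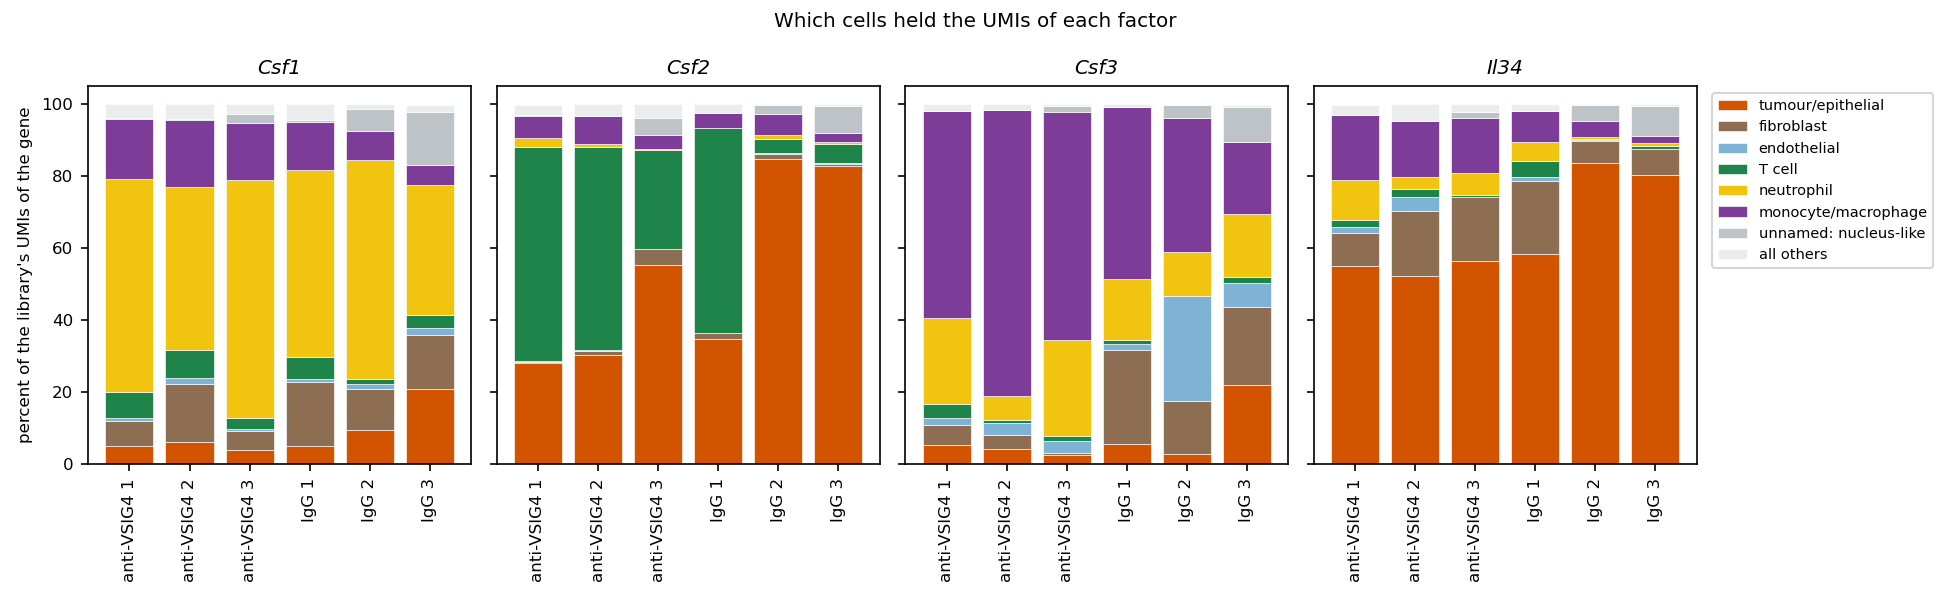
Share of the UMIs of Csf1, Csf2, Csf3 and Il34 held by each class, in percent of that gene's UMIs in a library, with 1 stacked bar per library and the anti-VSIG4 libraries on the left. For Csf2, T cells hold the largest part of the bar in anti-VSIG4 1, anti-VSIG4 2 and IgG 1, and tumour/epithelial cells in the other 3. Most of the T cell part in anti-VSIG4 2 is 1 cell.

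In tumour/epithelial cells, Csf2 was at 23.6, 29.7 and 44.6 CPM in anti-VSIG4 libraries and 13.7, 61.5 and 69.5 CPM in IgG libraries. The IgG values spanned the anti-VSIG4 values (exact permutation p = 0.4). The edgeR change was 0.92 among low-nucleus libraries and -0.49 among high-nucleus libraries, so the direction turned with library kind. Of 2683 tumour/epithelial cells, 356 had a Csf2 UMI, and the thinned share was 2.39%. T cells and tumour/epithelial cells did not differ in level beyond their spread, with means of 23.4 ± 11.3 and 40.5 ± 22.0 CPM (SD, n = 6). NK cells, with 3.84 ± 3.14 CPM, lay below T cells in all 6 libraries. The levels most like Csf2 over the 60 sums were those of Acsbg1 (r = 0.83), Perp (r = 0.78) and Gldc (r = 0.77), an acyl-CoA synthetase, a desmosome-linked p53 target and a glycine-cleaving enzyme.

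Csf2 in T cells, the comparison of interest for lymphocyte GM-CSF, was higher in each anti-VSIG4 library than in any IgG library. Its level was 37.0, 37.6 and 21.9 CPM in anti-VSIG4 libraries, against 18, 11.1 and 15.1 CPM in IgG libraries. The group means were 32.2 ± 8.9 and 14.7 ± 3.5 CPM (SD, n = 3 each; exact two-sided permutation p = 0.1, the smallest possible). edgeR gave a log2 change of 1.14 ± 0.24 with an unadjusted p of 0.000642 and an adjusted p of 0.978 over all 10936 genes tested in T cells, so it did not pass. Over 15 other settings, DESeq2 among them (adjusted p = 0.17), the adjusted p ran from 0.00137 to 1.0 and passed in 1, edgeR with no filter on low counts. Of all genes tested in T cells, 7.85% had groups that did not overlap. The change was 1.11 among low-nucleus libraries and 0.76 among high-nucleus libraries. The macrophage genes C1qa, C1qb and Apoe also did not overlap in the T cell class, summing to 1550, 781 and 804 CPM in anti-VSIG4 libraries and 729, 527 and 235 CPM in IgG libraries (exact permutation p = 0.1). Their part in the Csf2 result was not tested, and Csf2 in monocyte/macrophages themselves averaged 2.09 ± 1.36 CPM (SD, n = 6).

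Those levels rested on few cells. A Csf2 UMI was found in 41, 31 and 15 T cells of the anti-VSIG4 libraries and in 18, 10 and 16 of the IgG libraries, 131 of 6240 in all. The UMIs numbered 259, 213 and 81 in anti-VSIG4 libraries and 69, 29 and 64 in IgG libraries. A single cell held 169 of the 213 UMIs in anti-VSIG4 2, or 79.3%, and the share of the top cell in the other libraries ran from 13.5% to 50%. Without the top cell of each library, the level was 32.0, 7.84 and 13 CPM in anti-VSIG4 libraries, against 10.7, 7.31 and 7.62 CPM in IgG libraries. The groups then overlapped (exact permutation p = 0.2).

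**Figure D5:**
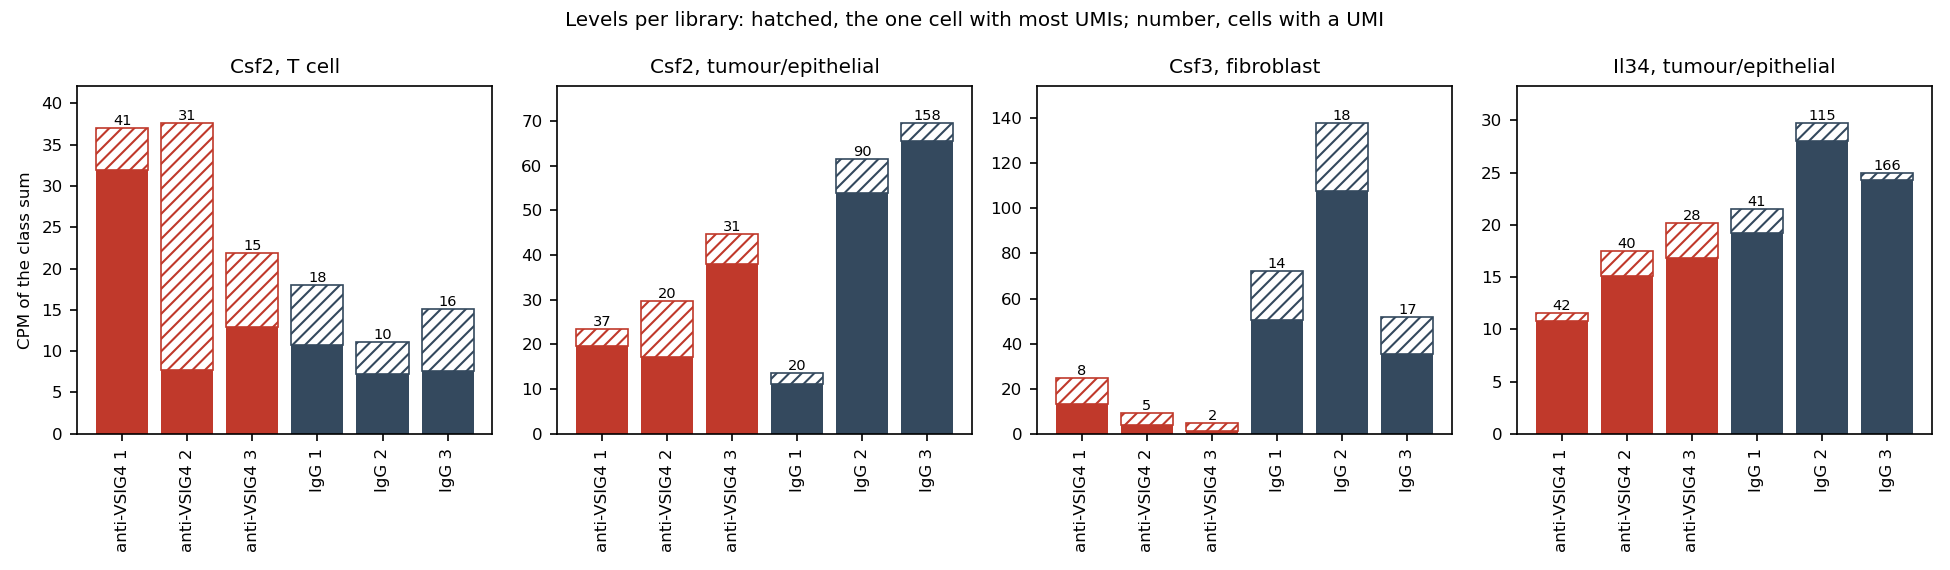
Level in CPM per library of Csf2 in T cells, Csf2 in tumour/epithelial cells, Csf3 in fibroblasts and Il34 in tumour/epithelial cells, with bars from 0, anti-VSIG4 in red on the left and IgG in dark blue on the right; the hatched part is the single cell with most UMIs and the number is the count of cells with a UMI. Most of the Csf2 bar of T cells in anti-VSIG4 2 is 1 cell, while the Il34 bars hold little hatching.

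The share of T cells with a Csf2 UMI weighs each cell once. It was 2.74%, 1.94% and 2.27% in anti-VSIG4 libraries and 1.59%, 1.64% and 2.15% in IgG libraries (exact permutation p = 0.2). Thinned to 1000 UMIs per cell, it was 1.47%, 0.874% and 1.21% in anti-VSIG4 libraries, against 0.707%, 0.329% and 0.538% in IgG libraries (exact permutation p = 0.1). The thinned shares of the 2 groups did not overlap, on 22, 14 and 8 cells against 8, 2 and 4. Neutrophils, which should lack Csf2, had a thinned share of 0.0811% and an unthinned share of 0.175%. Not in these counts are nucleus-like cells led by T cell genes such as Camk4 and Themis, which held 104 Csf2 UMIs in 3587 cells (10.2 CPM), with 2928 of these cells in IgG 3.

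Among T and NK cells, Csf2 gathered in a sub-cluster led by Gzmc, Ccl1, Gzmf, Penk and Nrgn, which encode granzymes, a chemokine, an opioid precursor and neurogranin. It held 464 cells, or 6.36% of T and NK cells, and 65 of the 140 cells with a Csf2 UMI, or 46.4%. Its thinned share of Csf2-positive cells was 7.11%. The sub-cluster's level was 267, 69.2 and 70.1 CPM in anti-VSIG4 libraries, against 41.1, 48.9 and 30.6 CPM in IgG libraries, on 22, 17 and 6 positive cells against 10, 3 and 7. It is described because it held more positive cells than any other, and with so few of them its groups were not tested. Cycling T cells had 20 positive cells, conventional CD4 T cells 8 of 560, CD8 T cells 5 of 1439 and 6 of 971, regulatory T cells 4 of 397 and gamma-delta T cells 0 of 116. Unnamed cluster 8, led by Ccl1, Nrgn, Rgs16, Stmn1 and Gzmc, had 10 of 414. Unnamed cluster 11, led by Hbb-bs, Hba-a1, Gzmc, Hba-a2 and Ifit1, had 5 of 99 and a thinned share of 4.04%. Its pooled Csf2 level was 145 CPM on 50 UMIs, 33 of them in 1 cell. The sub-cluster with 464 cells had a lower pooled level, 108 CPM. The top cell of anti-VSIG4 2 was a cycling cell with 54825 UMIs, 161 of them from Ccl1 and 682 from Gzmc. The top cell of anti-VSIG4 3 had 1 UMI of Trbc2 and 0 of Cd3e, so its T cell origin rests on little.

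Csf2-positive T cells had higher levels of some other cytokines and lower levels of others. Ifng was at 298 CPM in the 131 positive cells and 43.3 CPM in the 6109 others, Il2 at 148 and 14 CPM, and Il5 at 35.4 and 1.58 CPM. Tnf was lower in the positive cells, at 33.6 against 48.8 CPM, as was Osm, at 80.2 against 106.2 CPM. Il3, a close relative of Csf2 on the same cytokine locus, was found in 2 positive cells and in 0 of the others. Cish, a feedback gene of STAT5 signalling, was at 207 and 110 CPM. Positive cells were deeper, with a median of 5177 against 3032 UMIs, and cells with more UMIs show more genes, so these values are a description with no test. The genes named here were chosen from the lists of pathway partners after their values were seen. Il1b, abundant in neutrophils, was at 850 CPM in positive cells and 1199 CPM in the others.

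The GM-CSF receptor chains were carried by all myeloid classes. Csf2ra was at 181, 214 and 168 CPM in neutrophils of anti-VSIG4 libraries, against 257, 214 and 238 CPM in those of IgG libraries. The groups did not overlap, by a margin of 213.7 against 214.4 CPM at the nearest values, and 12.4% of all genes tested in neutrophils had groups without overlap. The edgeR change was -0.24 ± 0.17 with an adjusted p of 0.858, and -0.34 and -0.25 in low- and high-nucleus libraries. Of 11 neutrophil sub-clusters with at least 400 cells, 10 had a lower mean in anti-VSIG4 than in IgG libraries, and unnamed cluster 7 a higher one, at 157 against 141 CPM. In 4 of the 11 the groups did not overlap, and no share over all genes was counted for sub-clusters. The sub-clusters are parts of the class sum in the same libraries, so their direction is not independent of it. The sub-clusters given next were chosen after their values were seen. In Cxcr2 neutrophils (cluster 6), Csf2ra was 213, 236 and 231 CPM in anti-VSIG4 libraries, against 295, 322 and 346 CPM in IgG libraries. In interferon-gene neutrophils it was 197, 210 and 174 CPM against 293, 252 and 263 CPM.

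Other Csf2ra carriers among the 10 classes followed in the order monocyte/macrophages (145 ± 14.4 CPM), cDC2 (122 ± 12.6 CPM) and migratory dendritic cells (96.1 ± 30.5 CPM; SD, n = 6). Outside the classes, 2292 nucleus-like cells led by Dcstamp and Cacna1d had pooled levels of 304 CPM for Csf2ra and 922 CPM for Csf2rb. All nucleus-like cells held 34.7% of Csf2ra and 38.3% of Csf2rb UMIs in IgG 3, against 0.347% and 0.195% in IgG 1. Neutrophils lay above monocyte/macrophages in CPM in all 6 libraries, while monocyte/macrophages and cDC2 did not differ beyond their spread over libraries. Within libraries, cDC2 lay above monocyte/macrophages in 1 of 6, with a log2 difference of -0.25 ± 0.22 (SD, n = 6). Per cell the order differed, with 0.979 Csf2ra UMIs in monocyte/macrophages, 0.932 in cDC2 and 0.37 in neutrophils. The median neutrophil held 1573 UMIs of all genes and the median monocyte/macrophage 4670. Monocyte/macrophages held 49.0% of all Csf2ra UMIs and neutrophils 26.4%. In cDC2 Csf2ra was 116, 125 and 99.2 CPM in anti-VSIG4 libraries, against 127, 129 and 134 CPM in IgG libraries, again without overlap (edgeR adjusted p = 0.954). NK cells, in which the thinned share with a UMI was 1.32% against 16.7% in neutrophils, had groups without overlap as well, at 11.9, 15.6 and 13.9 CPM against 21.6, 16.7 and 17.2 CPM, as had 10.2% of all genes tested in NK cells. Clec7a, encoding the fungal sensor dectin-1, had a level like Csf2ra (r = 0.93), after Spi1 and Csf2rb (r = 0.94).

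Csf2rb was highest in neutrophils, at 948, 1116 and 708 CPM in anti-VSIG4 libraries and 1224, 744 and 702 CPM in IgG libraries, which overlapped. In both groups the low-nucleus libraries were the higher ones. Migratory dendritic cells had 555 ± 95.4 CPM, cDC2 486 ± 86.9 CPM and monocyte/macrophages 428 ± 67.4 CPM (SD, n = 6), and these neighbours did not differ beyond their spread over libraries. Within libraries, migratory dendritic cells lay above monocyte/macrophages in 5 of 6, with a log2 difference of 0.37 ± 0.25 (SD, n = 6). Endothelial cells came next, with 126.5 ± 35.1 CPM and a thinned share of 14%, against 7.24% in T cells. Per cell the order differed, with 3.85 Csf2rb UMIs in cDC2, 2.99 in migratory dendritic cells, 2.96 in monocyte/macrophages and 1.59 in neutrophils. Monocyte/macrophages held 42.4% of all Csf2rb UMIs and neutrophils 32.5%. Bcl2a1a, a survival gene, had a level like Csf2rb (r = 0.95). Reads of Csf2rb can be shared with its neighbour Csf2rb2, which in mice encodes an IL-3-specific beta chain. In GENCODE vM21, 28.0% of the 31-base words of the longest Csf2rb transcript also occur in Csf2rb2, and 1.28% of those in the last 500 bases, so both counts are uncertain to that extent.

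Csf2rb2 was at 59.8, 45.7 and 50.8 CPM in monocyte/macrophages of anti-VSIG4 libraries, against 41.3, 35.6 and 33.7 CPM in those of IgG libraries. Like those of 7.82% of the genes tested there, these groups did not overlap (edgeR 0.49 ± 0.16, unadjusted p = 0.0134, adjusted p = 1.0; 0.37 and 0.60 in low- and high-nucleus libraries). Nor did the groups overlap in T cells, at 14.8, 11.5 and 12.2 CPM in anti-VSIG4 against 8.09, 8.41 and 2.6 CPM in IgG libraries. They were also apart over all kept cells, at 47.8, 33.8 and 44.4 CPM against 33.1, 30.7 and 19.5 CPM. Such a pattern was found in 7.85% of genes tested in T cells and 14.6% over all kept cells. In plasma cells, under the filter on low counts, the groups were apart too. The Csf2rb2 change by edgeR was above 0 in every class tested, and none passed. Csf2rb itself was 491, 457 and 452 CPM in anti-VSIG4 and 482, 351 and 337 CPM in IgG monocyte/macrophages, which overlapped.

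Csf3 RNA had several sources. Monocyte/macrophages held 48.9% of its UMIs, neutrophils 17.6%, endothelial cells 12.4%, fibroblasts 11.2% and tumour/epithelial cells 5.34%. Monocyte/macrophage levels were 17.6, 27.5 and 36.1 CPM in anti-VSIG4 libraries and 20.8, 42.8 and 10.8 CPM in IgG libraries. They overlapped, and the sub-cluster with the highest mean was that of macrophages with Saa3, an acute-phase gene, at 51.4, 71.6 and 220 CPM in anti-VSIG4 libraries and 34.2, 91.0 and 29.5 CPM in IgG libraries. Endothelial levels were 17.3, 18.5 and 59.5 CPM in anti-VSIG4 libraries and 15.7, 397 and 32.1 CPM in IgG libraries. IgG 2 alone held 441 of the 534 endothelial Csf3 UMIs, in 12 cells. The 3 genes most like Csf3 over the 60 sums were Ier3 (r = 0.83), Rcan1 (r = 0.81) and Fos (r = 0.81), all of them known as stimulus-induced genes.

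In fibroblasts, Csf3 was lower in every anti-VSIG4 library than in any IgG library. It was 24.9, 9.26 and 4.68 CPM in anti-VSIG4 libraries, against 72.2, 138 and 51.8 CPM in IgG libraries. The number of fibroblasts with a Csf3 UMI was 8 of 82, 5 of 177 and 2 of 54 in anti-VSIG4 libraries, against 14 of 209, 18 of 141 and 17 of 222 in IgG libraries. Of all genes tested in fibroblasts, 10.7% had groups that did not overlap. The exact two-sided permutation p was 0.1, the smallest possible, and the same without the top cell of each library. The thinned share was 1.21 ± 0.643% in anti-VSIG4 and 4.75 ± 1.41% in IgG libraries (SD, n = 3 each), and T cells had 0.112%. Unthinned, the fibroblast share was 9.76%, 2.82% and 3.7% in anti-VSIG4 libraries and 6.7%, 12.8% and 7.66% in IgG libraries. These unthinned shares overlapped, and T cells had 0.497%.

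By edgeR's quasi-likelihood test the Csf3 change in fibroblasts was -2.80 ± 0.59 on the log2 scale, with an unadjusted p of 0.00134 and an adjusted p of 0.416 over 9582 genes, so it did not pass. It passed in 4 of 15 other settings: with DESeq2 (adjusted p = 9.44e-05), with no filter on low counts (7.72e-13), with the replicate numbers as a block (0.0209) and in the low-nucleus libraries alone (4.6e-06). Within library kinds it was -2.21 (low-nucleus) and -4.39 (high-nucleus). The fibroblast genes Col1a1, Col1a2, Col3a1 and Dcn summed to 21400, 22000 and 24500 CPM in this class in anti-VSIG4 libraries and 20900, 15000 and 19700 CPM in IgG libraries. Krt8, Krt18 and Krt19 summed to 180, 254 and 175 CPM in anti-VSIG4 and 240, 608 and 1060 CPM in IgG fibroblasts. The level of Csf3 in tumour/epithelial cells was 3.91 to 8.16 CPM over the 6 libraries. The part of these markers in the Csf3 difference was not tested.

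Csf3r was highest in neutrophils, at 1073, 1073 and 659 CPM in anti-VSIG4 libraries and 1398, 681 and 660 CPM in IgG libraries. The groups overlapped, and the values split by library kind. The thinned share with a Csf3r UMI was 50.4% in neutrophils. In the other classes the mean level ran from 39.4 to 68.1 CPM, and in T cells, which should lack the receptor, the thinned share was 6.28% (unthinned 18.2%). The T cell level was 97.9, 60.2 and 40.8 CPM in anti-VSIG4 and 108, 37.5 and 17 CPM in IgG libraries. S100a8 and S100a9, abundant neutrophil genes, summed there to 2220, 1050 and 947 CPM in anti-VSIG4 and 1820, 536 and 312 CPM in IgG libraries, and their part in the level outside neutrophils was not tested. Monocyte/macrophages had a thinned share of 7.93%, and 1 unnamed sub-cluster of 464 of these cells a pooled level of 334 CPM. That sub-cluster was left unnamed because genes of another lineage led it, among them the neutrophil markers S100a9, S100a8 and Cxcr2. Their part in its Csf3r level was not tested.

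The Cxcr2 and cytokine sub-clusters of neutrophils, compared above for Csf1, also differed in Csf3r. The Cxcr2 sub-clusters had 1575 ± 407 and 1347 ± 536 CPM, and the cytokine sub-clusters 722 ± 246 and 1062 ± 200 CPM (SD, n = 6). Cxcr2 cluster 6 lay above both cytokine sub-clusters in 6 of 6 libraries, and Cxcr2 cluster 3 above one in 6 and above the other in 5. Not all sub-clusters had the 2 genes in opposite order: pooled over libraries, unnamed cluster 1 had 274 CPM of Csf1 and 523 CPM of Csf3r, both below cytokine cluster 2 at 573 and 1020 CPM. Levels most like Csf3r over the 60 sums were those of S100a8, Acod1 and Hdc (r = 0.95 each), encoding a calprotectin subunit, the itaconate enzyme and the histamine-forming enzyme.

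Differences in CPM between classes were tested in 15 fixed pairs by an exact sign-flip test over the 6 libraries, whose smallest p is 0.03125. In 8 pairs all 6 libraries lay on one side, with a p of 0.03125 and a Benjamini-Hochberg adjusted p of 0.0586, so no pair passed 0.05. For Csf1 the log2 difference was 2.71 ± 0.16 for fibroblasts over tumour/epithelial cells and -3.03 ± 0.38 for T cells over fibroblasts. For Csf2 it was 2.52 ± 0.85 for T cells over NK cells. For Csf1r it was 2.23 ± 0.21 for monocyte/macrophages over cDC2 and 2.42 ± 0.29 over neutrophils. For neutrophils over monocyte/macrophages it was 0.54 ± 0.25 in Csf2ra, 1.06 ± 0.25 in Csf2rb and 3.89 ± 0.50 in Csf3r (SD, n = 6). Csf3 in fibroblasts against tumour/epithelial cells or neutrophils and Il34 in tumour/epithelial cells against fibroblasts did not differ in a single direction.

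Summed over all kept cells of a tumour, the factors also overlapped between groups; in such sums, fewer cells of a class and less RNA per cell cannot be told apart. Csf1 was at 112, 57.3 and 96.4 CPM in anti-VSIG4 libraries and 88.4, 107 and 63.1 CPM in IgG libraries (exact permutation p = 0.9). Csf2 was at 10.4, 13.3 and 7.48 CPM and Csf3 at 11.2, 13.2 and 26.8 CPM in anti-VSIG4 libraries, against 4.55, 18.1 and 25.2 CPM and 17.2, 36.6 and 9.27 CPM in IgG libraries. Il34 was at 2.61, 4.5 and 3.31 CPM in anti-VSIG4 and 4.25, 8.87 and 9.33 CPM in IgG libraries (exact permutation p = 0.2). The receptor chains of the set overlapped too, where 14.6% of all genes tested did not, with exact permutation p from 0.3 for Csf1r to 0.7 for Csf2ra.

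Partners of the pathway were read from 5 lists in neutrophils, monocyte/macrophages, T cells, fibroblasts and tumour/epithelial cells, and edgeR called none of their genes in any of these classes. The lists were relatives of the common beta chain, signalling proteins next to the receptors, STAT feedback and survival genes, myeloid transcription factors, and inducers of the factors. All 17 signalling genes, such as Jak2, Stat5a and Stat5b, were tested in each class, with 0 at an unadjusted p under 0.05 and median log2 changes from -0.07 to 0.19. Of 10 feedback and survival genes, 1 each reached an unadjusted p under 0.05 in monocyte/macrophages, T cells and fibroblasts. Socs2, an inhibitor of cytokine signalling, was at 37.1, 37.0 and 33.7 CPM in anti-VSIG4 and 28.0, 27.2 and 28.7 CPM in IgG monocyte/macrophages (edgeR 0.35 ± 0.14, adjusted p = 1.0). Socs1 in fibroblasts was at 50.7, 24.1 and 32.8 CPM in anti-VSIG4 and 44.3, 69.8 and 56.8 CPM in IgG libraries (edgeR -0.73 ± 0.30, adjusted p = 0.764).

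Among myeloid transcription factors, Klf4, which has roles beyond myeloid cells, was at 410, 548 and 930 CPM in anti-VSIG4 and 974, 1280 and 1410 CPM in IgG fibroblasts (edgeR -0.99 ± 0.30, adjusted p = 0.562).

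Inducers of the factors had the list medians farthest from 0, at 0.91 in tumour/epithelial cells and 0.89 in T cells on the log2 scale, where the median of all genes was 0.001 and -0.009. Il23a was at 58.1, 29.7 and 28.3 CPM in tumour/epithelial cells of anti-VSIG4 libraries, against 14.4, 12.8 and 13.8 CPM in those of IgG libraries (edgeR 1.54 ± 0.29, adjusted p = 0.998). Il1a in T cells was at 65.7, 32.0 and 28.9 CPM in anti-VSIG4 and 24.0, 14.9 and 9.44 CPM in IgG libraries (edgeR 1.41 ± 0.39, adjusted p = 0.999). Both are abundant in neutrophils, where Il23a was at 703, 695 and 949 CPM in anti-VSIG4 and 379, 700 and 728 CPM in IgG libraries. S100a8 and S100a9 in tumour/epithelial cells summed to 1520, 413 and 340 CPM in anti-VSIG4 and 783, 241 and 165 CPM in IgG libraries, and the part of these in the differences was not tested. In monocyte/macrophages Il1a averaged 144 CPM, and C1qa, C1qb and Apoe in T cells, given above, were higher in each anti-VSIG4 library than in any IgG library, as Il1a was; their part in the Il1a difference was not tested either. The remaining genes nearest the threshold, Il3ra, Jak2 and Ptpn6, had adjusted p-values of 0.778, 0.835 and 0.999.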

How the data were processed

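Single-cell RNA-seq of 6 tumours was used, 3 from anti-VSIG4 and 3 from IgG mice, with mice as replicates. The authors deposited UMI counts per gene and barcode, written by PISA 1.0 per the file headers. STAR and Seurat 4.11 are named in the submitters' processing notes. The sources used here give no genome build, annotation or strand setting. In GENCODE vM21, Csf2 overlaps Gm12223 on the other strand, Il34 overlaps Gm15894 and Gm15895, and Csf1r overlaps Hmgxb3. Without strand, reads of such pairs cannot be told apart.

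Every deposited barcode held at least 1000 UMIs. Cells were kept with at least 500 UMIs, 300 genes and at most 20% mitochondrial UMIs. Scrublet marked 0 of 47603 cells and was taken not to have worked, so no doublets were removed. Leiden clusters (resolution 2.0, 3000 variable genes, 40 components, 20 neighbours) were named from fixed markers, with the 8 members and Csf2rb2 kept out of both. Clusters whose median cell had over 15% of UMIs in genes over 100 kb were called nucleus-like. Sub-clusters of T and NK cells, monocyte/macrophages and neutrophils came from Seurat 5.3.0 (reciprocal PCA, 30 dimensions, resolution 1.0). The basophil-like cells came from a further Leiden clustering, without integration over libraries, of erythroid cells and cells with leading genes of several classes.

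Tests used edgeR 4.0.16 in R 4.3.3 (TMM, filterByExpr, robust fit) in classes with at least 20 cells per library, at a false discovery rate of 0.05. DESeq2 1.42.0, Python 3.11.15, scanpy 1.11.5, leidenalg 0.10.2 and scipy 1.17.1 were also used. Single values were compared by exact permutation over libraries. The edgeR step was tested on simulated counts.

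The members and gene lists were chosen with earlier results of these data known. The text names all 8 members, from each list and class any gene past the threshold and otherwise the 2 of smallest p with at least 20 CPM, the 3 genes most correlated with each member, and 5 leading genes of a sub-cluster. Alternatives were DESeq2, other scaling, no filter, a replicate block, library kind, leaving out libraries, removing the 6% of cells with the highest doublet score, other pseudocounts, unthinned shares and leaving out nucleus-like cells; leaving out each library's top cell was added after the data were seen. Some results under the naming rule are not reported here.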

Additional observations from a re-analysis of the deposited data

How the results depend on the processing

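For 14 or 15 alternatives per class, no member was called in cDC2, NK cells, tumour/epithelial cells, migratory dendritic cells, endothelial cells or plasma cells. One member was called in neutrophils (high-nucleus libraries alone: Csf3, 0.87, adjusted p = 0.0271), in monocyte/macrophages (high-nucleus libraries alone: Csf2, -2.37, adjusted p = 0.00426), in T cells (no filter: Csf2, 1.17, adjusted p = 0.00137) and in fibroblasts (Csf3 with DESeq2, -2.81; no filter, -2.82; the replicate block, -2.87; low-nucleus libraries alone, -2.21), against 0 in the reported edgeR fits. The cause was not tested. Genes called over the 10 classes numbered 2 as reported, 100 with DESeq2, 610 with no filter, 166 with the replicate block, 25 with library kind as a covariate, 194 in low-nucleus and 860 in high-nucleus libraries alone, and 0 to 515 when 1 library was left out (515 without IgG 1). In fits of 3 libraries, the group with 1 library is assumed to vary like the other.

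Small changes turned sign. With 1 library left out, the neutrophil change ran from -0.05 to 0.17 for Csf1, -0.027 to 0.46 for Csf2rb and -0.09 to 0.59 for Csf3r. Csf2 in tumour/epithelial cells was 0.11 with library kind as a covariate and 0.92 in low-nucleus libraries. With the same 2 settings, neutrophil Csf2rb was -0.04 and -0.21 and Csf3r -0.1 and -0.34. In monocyte/macrophages of low-nucleus libraries, Csf1r was 0.00099 and Csf2rb -0.0044. Over all kept cells, the difference in CPM, anti-VSIG4 minus IgG, ran with 1 library left out from -9.44 to 17.7 for Csf1, -9.81 to 3.83 for Csf3, -3.09 to 18.4 for Csf2ra and -20.3 to 85.9 for Csf3r. It was -1.72 for Csf1 without nucleus-like cells.

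Libraries with the same replicate number correlated in their deviations from group means by 0.09 to 0.35 for number 1, -0.31 to -0.02 for number 2 and 0.12 to 0.38 for number 3 over the classes, so the numbers do not pair them. These checks of direction covered chosen pairs of a member and a class and the sums over all kept cells. There, the other 196 alternative values kept their direction. Those of the chosen pairs also kept their side of the threshold, which was not compared for the sums. Pairs outside this choice turned as well, such as Csf2 in monocyte/macrophages (-2.37 to 2.17) and Csf3r in T cells (-0.39 to 1.27). Without the top cell of each library, a choice made after seeing the data, the Csf2 change in T cells was 1.07 (adjusted p = 1.0), that of Csf3 in fibroblasts -3.49 and that of Il34 in tumour/epithelial cells -0.71. Few positive cells limit Csf2, Csf3 and Il34, and with 3 mice a group p-values below 0.1 cannot come from an exact test.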
